A study of Mus musculus with 6 samples.

Results

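The Rab GTPases are described here in T cells sorted from mouse skin. The members are all genes of the deposited count table whose symbol is Rab followed by a number, with at most 1 further letter and 1 further digit. The rule, which uses the symbol and no measured value, takes 50 of the 15106 genes in the table. Transcripts were counted in 4 libraries of regulatory T cells (Tregs, named Treg 1 to Treg 4) and 2 libraries of effector T cells (Teffs, Teff 1 and Teff 2). All libraries came from the skin of mice aged 6 weeks that carry a FOXP3-GFP reporter, in which a green fluorescent protein reports FOXP3, the transcription factor that defines Tregs. No treatment is labelled for either group, and the labels give neither the strain, the sort gates nor whether libraries came from separate animals, so p-values cover the spread among these 6 libraries, and some of it may be technical.

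Rab proteins are small GTPases of the Ras superfamily that mark the membranes of a cell's compartments. In the GTP-bound form each recruits effectors that move, tether and fuse vesicles, exchange factors load the GTP, and GTPase-activating proteins end the signal. A lipid tail added by geranylgeranyl transferase holds them on membranes, and the GDI proteins take them back into the cytosol. In T cells, Rabs serve the recycling of antigen receptors, the release of cytokines and granules, and the turnover of receptors in lysosomes.

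Counts in genes came to 4902126 to 7468778 per library, and counts were found for 9602 to 13197 genes. Values are given as CPM, counts scaled to the same total in every library, with TMM factors (trimmed mean of M-values). The common biological coefficient of variation over genes was 1.20, a wide spread. Foxp3 was at 103, 232, 154 and 182 CPM in the Treg libraries and at 11.2 and 7.15 CPM in Teffs, which fits the labels. The T cell markers Cd3e, Cd3d and Cd4 summed to 1349 to 2575 CPM over all libraries. Treg 3 stood apart by transcripts of other skin cells. Its 6 fibroblast markers summed to 1988 CPM, against 3.84 to 8.27 CPM in the other Treg libraries, 176 CPM in Teff 1 and 3.86 CPM in Teff 2. Its 5 measured keratinocyte markers, of 6 listed, summed to 609.7 CPM, against 0 to 0.797 CPM in the other Treg libraries, 90.9 CPM in Teff 1 and 21.2 CPM in Teff 2. Krt14 was at 0 in Treg 1 and Treg 4, and Krt5 at 0 in Treg 1 and Treg 2. Markers of some other cell types separated the groups. CD8 T cell markers summed to 0.180 to 65.4 CPM in Tregs and 93.3 and 142 CPM in Teffs, 2 endothelial markers to 16.0 to 65.9 CPM and 84.7 and 121 CPM, and 3 B cell markers to 0 to 3.67 CPM and 10.8 and 11.2 CPM. The 4 measured myeloid markers overlapped, at 109 to 506 CPM in Tregs and 188 and 264 CPM in Teffs. Their part in the differences given here was not tested.

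The Rab family was found in both populations, and no member passed the test for a difference between them. Together the 50 genes took 0.411%, 0.282%, 0.357% and 0.279% of the gene counts in Treg 1 to Treg 4 and 0.341% and 0.286% in Teff 1 and Teff 2. Groups overlapped in this share. It was highest in Treg 1, where Rab8b alone held 35.9% of the family's counts. Without Rab8b the members summed to 2396 to 2891 CPM in Tregs and 2316 and 2543 CPM in Teffs. Counts were found in all 6 libraries for 37 members (74%), against 52% of all genes of the table. In 14 members (28%) the highest library was under 4 times the lowest, against 21.2% of all genes. Among the 37 members with counts in all 6 libraries, the highest library was over 100 times the lowest in 4. This ratio is not defined for the 13 other members, and no share of all genes over 100 times was taken. These shares depend on the level of a gene, and levels were not matched between the family and the other genes.

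**Figure D1:**
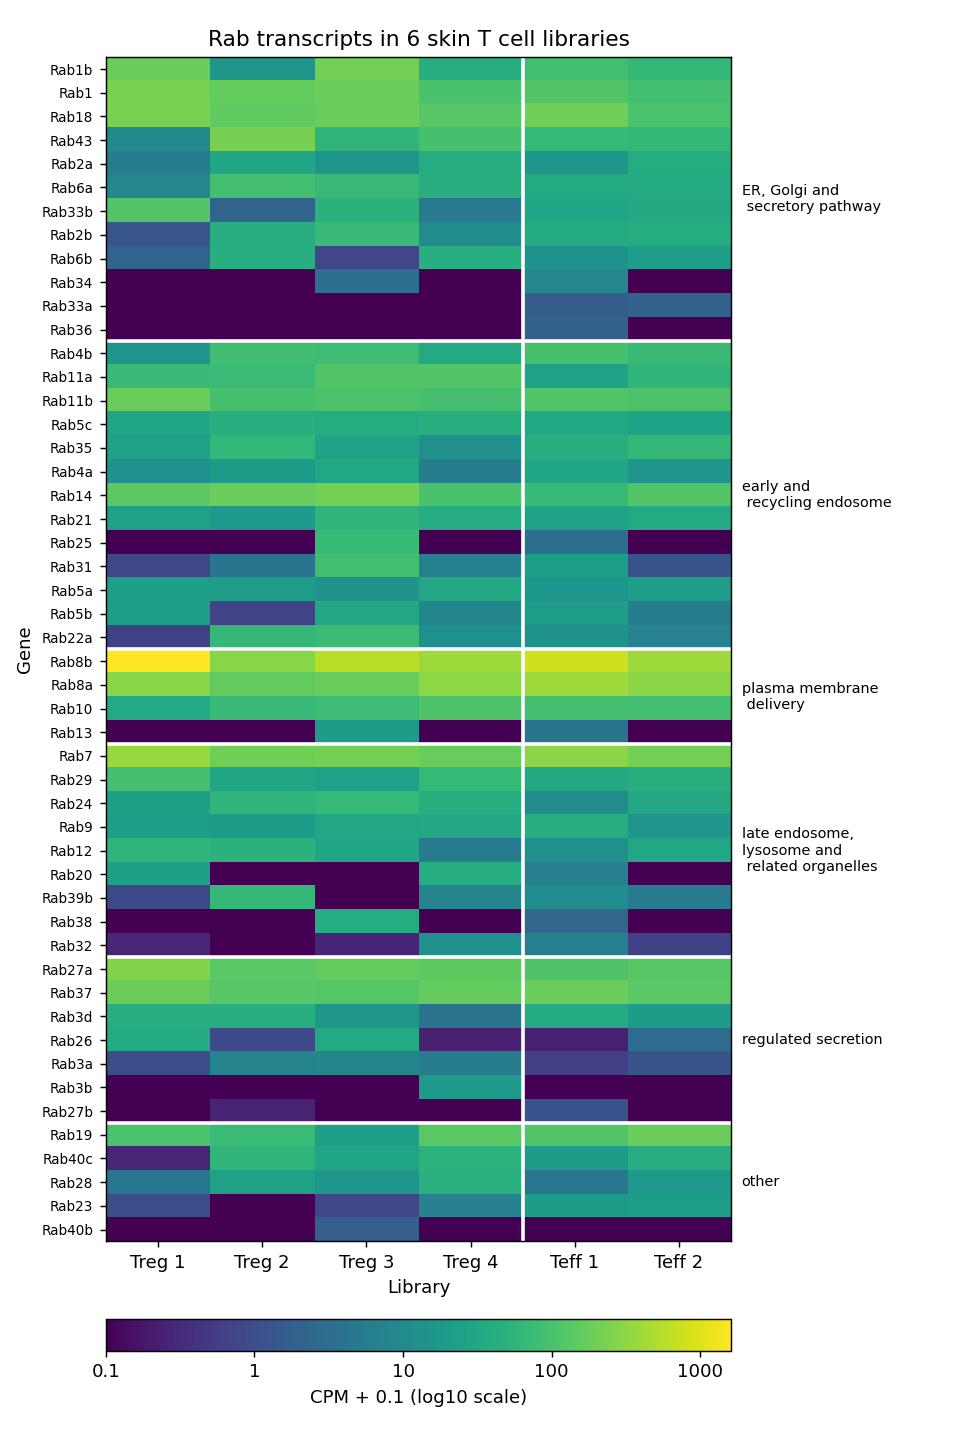
Level of each of the 50 Rab genes (rows, by role and then by level per length) in each library (columns), as CPM + 0.1 on a log10 colour scale. Counts are found in all 6 libraries for 37 rows, while Rab25, Rab38, Rab13 and Rab34 have counts in Treg 3 and Teff 1 alone.

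Levels of different genes were compared per kb of exonic length. The highest mean of the family was that of Rab8b, which directs vesicles to the plasma membrane, at 152 ± 128 CPM per kb in Tregs (SD, n = 4) and 127 ± 63.4 CPM per kb in Teffs (SD, n = 2). It was followed by Rab7, the Rab of late endosomes and lysosomes, at 90.7 ± 33.8 CPM per kb in Tregs and 98.0 ± 22.8 CPM per kb in Teffs. Next came Rab19, a little studied member, at 53.8 ± 30.3 CPM per kb in Tregs and 93.9 ± 27.6 CPM per kb in Teffs. Rab8a (49.1 ± 16.8 CPM per kb in Tregs and 74.1 ± 13.9 CPM per kb in Teffs) and Rab1b (50.5 ± 44.4 CPM per kb in Tregs and 33.0 ± 7.33 CPM per kb in Teffs) completed the first 5. Rab8b was the highest in 3 of the 6 libraries, Rab19 in Treg 4 and Teff 2, and Rab7 in Treg 2. The ranges of these 5 genes overlap, so their order is not settled by these libraries. Exonic length covers all annotated exons of a gene and can exceed its longest transcript, as in Rab37 (5330 against 2608 bases). Which genes are among the first 5 therefore also depends on the length used. At the low end stood Rab27b, Rab36 and Rab40b, each with a mean over both groups under 0.11 CPM per kb (0.0266, 0.0747 and 0.109).

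Among members with 1 listed promoter, those with counts in all 6 libraries had promoters rich in the dinucleotide CG. Their levels were not all even: in Rab40c, which is among them, the highest library was 318 times the lowest. In the 250 bases before the start site (RefSeq, GRCm38.p6), the 28 members with 1 listed promoter and counts in all 6 libraries held a median of 22 CG (6 to 40), and 24 of them held at least 10. The 7 members with 1 listed promoter and no counts in at least 1 library held a median of 8 CG (5 to 12), and 2 of them held at least 10. Members with more than 1 listed promoter are not in either set. Of these, Rab23 (9 and 42 CG), Rab13 (20 and 9 CG) and Rab34 (10 and 19 CG) also lacked counts in a library. Rab27a (14 and 5 CG), Rab3a (16 and 15 CG), Rab7 (10 and 29 CG) and Rab43 (2 to 21 CG) had counts in all 6. Rab18, Rab26, Rab27b, Rab2a, Rab36, Rab37, Rab38 and Rab4a had no promoter listed in the source used. Of them, Rab27b, Rab36 and Rab38 lacked counts in a library. The contrast therefore covers members with 1 listed promoter only. Over 32851 RefSeq promoters of this length the median was 6 CG, and 37.8% held at least 10. CG reads the same on both strands, and the count describes the sequence and shows no cause. The sequences are those of the member with the highest mean level, Rab8b (chr9:66919706-66919955, minus strand, 20 CG), and a member with counts in Teffs alone, Rab33a (chrX:48519035-48519284, plus strand, 7 CG), with each CG in capitals.
Rab8b: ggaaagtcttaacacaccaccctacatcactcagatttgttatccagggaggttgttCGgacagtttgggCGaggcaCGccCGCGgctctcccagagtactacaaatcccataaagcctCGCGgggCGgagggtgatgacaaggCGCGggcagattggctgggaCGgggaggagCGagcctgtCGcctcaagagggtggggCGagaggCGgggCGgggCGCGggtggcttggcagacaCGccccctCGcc
Rab33a: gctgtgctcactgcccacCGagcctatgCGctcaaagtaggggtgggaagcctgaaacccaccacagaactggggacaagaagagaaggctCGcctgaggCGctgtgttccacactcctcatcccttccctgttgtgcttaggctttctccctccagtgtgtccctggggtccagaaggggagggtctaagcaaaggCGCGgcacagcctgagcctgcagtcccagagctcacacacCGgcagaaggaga

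The comparison of Tregs with Teffs asked which members differ between these populations within the skin. Of the 50 members, 45 had enough counts to be tested. None passed edgeR's quasi-likelihood test with Benjamini-Hochberg adjustment over 11775 genes, of which 5 (0.0425%) passed. The smallest adjusted p among members was 1.0. At an unadjusted p under 0.05 there were 0 members as well, against 4.73% of all tested genes, and the smallest was 0.0843. DESeq2 called 0 members (1.78% of all genes with an adjusted p) and had 0 at an unadjusted p under 0.05 (6.62% of all genes). In the authors' deposited table the smallest FDR of a member is 1 and the smallest p is 0.0769, for Rab33a.

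Log2 fold changes, coded Treg minus Teff, were above 0 for 30 members and below 0 for 15, against 53.5% above 0 among all tested genes. Their median was 0.37, beside 0.07 for all tested genes, and they ran from -3.34 to 3.66. The size was under 1 for 68.9% of tested members and 68.1% of all tested genes. The 10 members with a mean of at least 100 CPM had log2 fold changes from -0.80 to 0.73, with standard errors of 0.38 to 0.71. Apart from Rab37, their intervals reached beyond 1 in size on the log2 scale, so they are not shown to be equal between the groups.

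**Figure D2:**
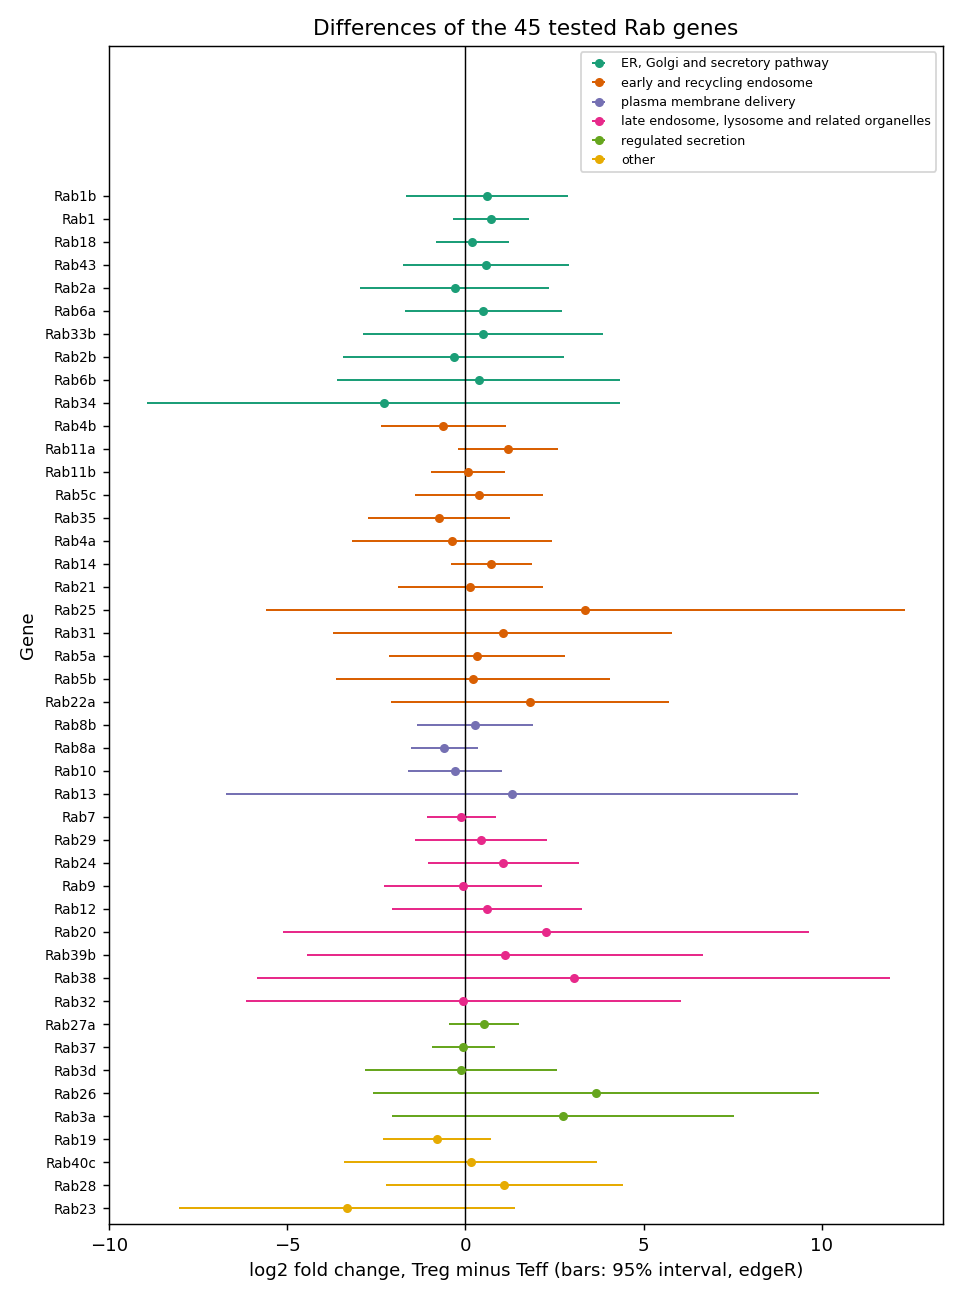
Log2 fold change (Treg minus Teff, horizontal axis) of the 45 tested Rab genes, with 95% intervals from edgeR and colours by role. All intervals include 0, and the point of Rab11a has the smallest p (0.0843).

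Groups did not overlap for 3 of the 45 tested members (6.67%), against 15% of all tested genes. They were Rab11a and Rab27a, with all Treg libraries above both Teff libraries (5.52% of all genes), and Rab23, with all below (9.49% of all genes). Rab33a, too low to be tested, also lay lower in every Treg library. Without Treg 3 and Teff 1, a choice made after seeing the data that leaves 3 libraries against 1, 6 members lay higher and 4 lower among 42 tested. These were 23.8% of the members, beside 37.6% of all genes tested in the same way.

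Among Rabs of early and recycling endosomes, 13 were tested, 10 with a log2 fold change above 0 and 3 below, with a median of 0.33. Rab11a, which returns receptors from recycling endosomes to the surface, was at 70.1, 72.7, 118 and 117 CPM in the Treg libraries, against 26.9 and 55.8 CPM in the Teff libraries. Every Treg library was above both Teff libraries. Means were 94.5 ± 26.7 CPM (SD, n = 4) and 41.4 ± 20.4 CPM (SD, n = 2), and the log2 fold change was 1.19 ± 0.61 (SE), with a 95% interval of -0.20 to 2.59. It did not pass (edgeR unadjusted p = 0.0843, adjusted p = 1.0). Leaving out 1 library at a time moved the log2 fold change between 0.75 and 1.78, the lowest without Teff 1 and the highest without Teff 2, and without both Treg 3 and Teff 1 it was 0.63. The gene lies on chromosome 9 from 64715299 to 64737758 (GRCm38, minus strand, protein coding), and exons of another gene on its strand cover 3.58% of its exonic bases.

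Rab11b, the close relative of Rab11a, was at 173, 97.1, 109 and 91.7 CPM in Tregs and 118 and 106 CPM in Teffs. Groups overlapped, and the log2 fold change of 0.08 ± 0.45 (SE) had an interval of -0.96 to 1.12. Rab14, which acts between the Golgi and endosomes, was at 138, 179, 212 and 97.8 CPM in Tregs and at 69.0 and 120.1 CPM in Teffs. Its lowest Treg library lay between both Teff libraries (log2 fold change 0.73 ± 0.49). The Rab5 paralogs drive the fusion of early endosomes. Rab5c was the evenest of them, at 30.2, 45.6, 39.8 and 43.5 CPM in Tregs and 33.6 and 27.6 CPM in Teffs. Rab5a was at 24.8, 22.5, 14.9 and 34.8 CPM in Tregs and 15.8 and 22.8 CPM in Teffs (log2 fold change 0.33 ± 1.07), and the groups overlapped. Rab5b ranged more widely, from 0.638 to 34.8 CPM in Tregs and from 5.99 to 22.7 CPM in Teffs.

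Members of the same compartment with other roles also overlapped between groups. Rab4b, of the fast recycling route, was at 15.6 to 84.0 CPM in Tregs and 70.3 to 95.7 CPM in Teffs, and its paralog Rab4a at 5.69 to 32.7 CPM and 15.5 to 31.1 CPM. Exons of Gm21983 on the same strand cover 65.0% of the exonic bases of Rab4b, so its counts depend on how such reads were assigned. Rab35, which also serves fast recycling, was at 13.4 to 61.9 CPM in Tregs and 44.3 to 62.6 CPM in Teffs (log2 fold change -0.76 ± 0.86). Rab21, linked to the traffic of integrins, was at 18.7 to 55.9 CPM in Tregs and 27.4 to 36.7 CPM in Teffs. Rab22a, of early endosomes, was at 0.539, 63.0, 73.2 and 12.8 CPM in Tregs and 14.0 and 7.34 CPM in Teffs. Treg 2 and Treg 3 were high in it and Treg 1 was near the floor of 3 counts, which is 0.396 to 0.579 CPM depending on the library.

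Rabs of regulated secretion gave 5 tested members, 3 with a log2 fold change above 0 and 2 below, with a median of 0.52. Rab27a docks secretory granules, those of cytotoxic lymphocytes included, at the plasma membrane. It was at 256, 137, 164 and 138 CPM in Tregs and 112 and 129 CPM in Teffs. Every Treg library exceeded both Teff libraries, by a narrow margin for Treg 2 and Treg 4. Means were 173 ± 56.2 CPM (SD, n = 4) and 121 ± 11.7 CPM (SD, n = 2), with a log2 fold change of 0.52 ± 0.43 and an interval of -0.47 to 1.52 (edgeR unadjusted p = 0.260). With upper-quartile scaling the groups of Rab27a overlapped. It lies on chromosome 9 from 73044854 to 73097629 (GRCm38, plus strand, protein coding). Its paralog Rab27b had 1 count in Treg 2 and 8 in Teff 1 and none elsewhere. Pooled over each group, the Treg to Teff ratio came to 0.0649 (exact 95% interval 0.00146 to 0.484, for counting error only).

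Rab37, linked to the release of secretory granules, was the most even member of the family. It was at 185, 132, 126 and 162 CPM in Tregs and 179 and 136 CPM in Teffs, so that the highest library was 1.47 times the lowest. The log2 fold change was -0.06 ± 0.38, with an interval of -0.94 to 0.83, and its sign changed when Treg 2, Treg 3 or Teff 1 was left out. The Rab3 proteins and Rab26 act in exocytosis of synaptic vesicles and granules. Rab3d was at 43.5, 45.3, 16.9 and 4.12 CPM in Tregs and 38.9 and 21.2 CPM in Teffs. Rab3a was low throughout, at 0.899, 7.66, 8.56 and 5.69 CPM in Tregs and 0.528 and 1.16 CPM in Teffs. Rab26 was at 39.0 and 36.9 CPM in Treg 1 and Treg 3 and did not exceed 2.90 CPM in Treg 2, Treg 4 and the Teffs. Rab3b had 129 counts in Treg 4 and none in any other library. Pooled over the group this is at least 22.3-fold higher in Tregs, against a floor of 3 counts over the Teff group, and it rests on Treg 4 alone.

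All 4 Rabs that deliver vesicles to the plasma membrane were tested. Their sum was the highest of the role groups in Treg 1 (1931 CPM), Treg 4 (816 CPM), Teff 1 (1304 CPM) and Teff 2 (779.9 CPM). In Treg 2 (507 CPM) and Treg 3 (861 CPM) other role groups lay above it. Rab8b was at 1611, 286, 588 and 395 CPM in Tregs and 815 and 390.3 CPM in Teffs. Treg 1 stood highest and groups overlapped (log2 fold change 0.26 ± 0.71, interval -1.37 to 1.88). Without Treg 1 the log2 fold change was -0.51, and without Teff 2 it was -0.19. Rab8a was at 283, 155, 171 and 311 CPM in Tregs and 393 and 301 CPM in Teffs, and Treg 4 lay between both Teff libraries (log2 fold change -0.59 ± 0.41, interval -1.53 to 0.34). With upper-quartile scaling all Treg libraries lay below both Teff libraries in Rab8a. Rab10, which acts in the exocytosis of membrane cargo, was at 37.2, 67.1, 80.4 and 110.1 CPM in Tregs and 92.0 and 89.0 CPM in Teffs (log2 fold change -0.30 ± 0.57).

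Rabs of the ER and Golgi gave 10 tested members of 12, with 7 log2 fold changes above 0, 3 below and a median of 0.43. Rab1, listed as Rab1a in the annotation used here, carries vesicles from the ER to the Golgi. It was at 232, 161, 183 and 98.3 CPM in Tregs and 115 and 90.6 CPM in Teffs, with Treg 4 between both Teff libraries (log2 fold change 0.71 ± 0.46, interval -0.36 to 1.78). Rab1b was at 186, 15.5, 216 and 41.5 CPM in Tregs and 86.7 and 63.2 CPM in Teffs, so that Treg 1 and Treg 3 were high and Treg 2 low (log2 fold change 0.61 ± 0.99). Rab18, of the ER and lipid droplets, was at 131 to 231 CPM in Tregs and 104 to 196 CPM in Teffs. Rab33b, a Golgi Rab that binds autophagy proteins, was at 120.5, 2.23, 50.8 and 5.55 CPM in Tregs and 29.6 and 34.0 CPM in Teffs. The Treg libraries therefore lay on both sides of Teffs. Its paralog Rab33a had 0 counts in Tregs and 12 and 10 counts in Teff 1 and Teff 2, at least 14.1-fold lower in Tregs against a floor of 3 counts over the group. Rab36 had 14 counts, all in Teff 1, and was at least 8.99-fold lower in Tregs on the same floor, a value that rests on Teff 1 alone.

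Other Golgi members were uneven among Tregs, and their groups overlapped. Rab43 was at 9.89, 55.9, 97.4 and 219.8 CPM in Treg 1, Treg 3, Treg 4 and Treg 2 and at 64.5 and 64.3 CPM in Teffs. Exons of Gm45140 on the same strand cover 75.4% of its exonic bases. Rab6a, which moves vesicles back through the Golgi, was at 8.81 to 88.0 CPM in Tregs and at 36.9 and 36.7 CPM in Teffs. Rab6b, its paralog, was at 0.699 to 45.3 CPM and 13.6 to 22.2 CPM. Rab2a and Rab2b, of the early secretory pathway, were at 5.93 to 40.0 CPM and 1.26 to 71.1 CPM in Tregs, and at 16.6 to 40.0 CPM and 39.3 to 40.0 CPM in Teffs. Exons on the opposite strand cover 64.0% of the exonic bases of Rab2b, and no source used here gives the strand setting of the counting.

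Rabs of late endosomes and lysosomes gave 9 tested members, 6 with a log2 fold change above 0 and 3 below, with a median of 0.61. Rab7 was at 367, 201, 209 and 171 CPM in Tregs and 298 and 214 CPM in Teffs. The groups overlapped, with a log2 fold change of -0.11 ± 0.42 and an interval of -1.08 to 0.85. The sign changed without Treg 4 (0.02) and without Teff 1 (0.14). The table holds reads with several alignments in a row apart from the genes, and 16.2% of the 50-base stretches of the Rab7 transcript occur exactly in transcripts of other genes, such as Rab7-ps1. Rab29, which recruits the kinase LRRK2 to membranes, was at 92.6, 30.5, 25.2 and 66.7 CPM in Tregs and 35.6 and 44.0 CPM in Teffs. Rab9, which returns cargo from late endosomes to the Golgi, was at 20.6 to 34.7 CPM in Tregs and 15.6 to 42.2 CPM in Teffs. Rab24, linked to autophagy, was at 24.5, 56.8, 65.0 and 41.2 CPM in Tregs and 10.7 and 34.2 CPM in Teffs, and exons of Prelid1 on the opposite strand cover 62.4% of its exonic bases.

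Rab12, a Rab of receptor degradation, was at 5.12 to 55.9 CPM in Tregs and 13.1 to 33.8 CPM in Teffs. Rab20, linked to the maturation of phagosomes, had counts in Treg 1 (24.6 CPM), Treg 4 (39.8 CPM) and Teff 1 (6.73 CPM) alone. Rab32, a Rab of lysosome-related organelles, was at 12.9 CPM in Treg 4, 6.33 CPM in Teff 1 and between 0 and 0.579 CPM elsewhere. Rab39b, a member known from neurons, was at 0.719, 62.5, 0 and 7.96 CPM in Tregs and 10.8 and 5.6 CPM in Teffs. The fitted difference of Rab32 had a wide error (log2 fold change -0.06 ± 2.64).

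Of the members with less defined roles, 4 of 5 were tested. Rab23, known as a negative regulator of Hedgehog signalling, was at 0.899, 0, 0.699 and 6.68 CPM in Tregs and 20.3 and 22.0 CPM in Teffs. All Treg libraries lay below both Teff libraries. Means were 2.07 ± 3.10 CPM (SD, n = 4) and 21.2 ± 1.20 CPM (SD, n = 2), with a log2 fold change of -3.34 ± 2.04 and an interval of -8.05 to 1.38 (edgeR unadjusted p = 0.141, adjusted p = 1.0). Leaving out 1 library at a time moved the log2 fold change between -5.26 and -2.93. Without Treg 4, the Treg library highest in Rab23, it was -5.26 with an unadjusted p of 0.0486 in edgeR, still short of the threshold after adjustment (0.925). Without Treg 1, Treg 2 or Treg 3 the unadjusted edgeR p was 0.199, 0.128 and 0.206. Rab23 lies on chromosome 1 from 33719887 to 33742564 (GRCm38, plus strand, protein coding). Rab19 was at 103, 74.3, 24.3 and 137 CPM in Tregs and 117 and 179 CPM in Teffs, with Treg 4 between both Teff libraries (log2 fold change -0.80 ± 0.66). Rab40c, which joins a ubiquitin ligase, was at 0.18 to 57.1 CPM in Tregs and 20.3 to 42.5 CPM in Teffs, and Rab28 at 4.32 to 48.1 CPM and 4.35 to 17.8 CPM. Rab40b had 10 counts in Treg 3 and none elsewhere, at least 1.73-fold higher in Tregs on the group floor, a value that rests on Treg 3 alone.

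Some members were found in 1 library of each population and in no other. Rab25, a Rab11 relative of epithelial cells, reached 71.8 CPM in Treg 3, was at 3.43 CPM in Teff 1, and had no counts elsewhere. Rab38, a Rab of pigment granules, had 40.0 CPM in Treg 3 against 2.38 CPM in Teff 1, Rab13, of epithelial junctions, at 21.1 and 4.22 CPM, and Rab34, linked to cilia and the Golgi, at 3.49 and 8.71 CPM. Counts in Treg 3 and Teff 1 and in no other library were found for these 4 members (8%) and for 4.14% of all genes of the table. Rab31, which moves cargo between the Golgi and endosomes, was at 84.6 CPM in Treg 3, 22.0 CPM in Teff 1 and 0.719 to 6.68 CPM in the other 4 libraries.

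Treg 3 and Teff 1 were also the libraries with the highest sums of fibroblast and keratinocyte markers given above. Col3a1, a fibroblast collagen, had 1444 CPM in Treg 3 against 89.3 CPM in Teff 1, and Krt14, a keratin of basal keratinocytes, at 328 and 62.5 CPM. Some listed markers departed from this order. In Teff 1, Dcn (2.51 CPM) lay below Treg 1 (6.65 CPM) and Lum (0.132 CPM) below Treg 2 (0.159 CPM), and Krt10 had no counts in Treg 3. The other measured markers of both lists were highest in Treg 3 and next highest in Teff 1. Dct, an enzyme of pigment cells, reached 12.9 CPM in Treg 3, was at 1.06 CPM in Teff 1, and had no counts elsewhere, while Pmel, the other measured marker of the 5 listed for pigment cells, was at 33.1 to 84.0 CPM in all libraries. The part of other skin cells in the counts of Rab25, Rab38, Rab13, Rab34 and Rab31 was not tested. In bulk libraries such as these, more cells of a type and more RNA per cell cannot be told apart. For Rab25 the fitted log2 fold change of 3.36 ± 3.89 rests on Treg 3, since no other Treg library holds a count.

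**Figure D3:**
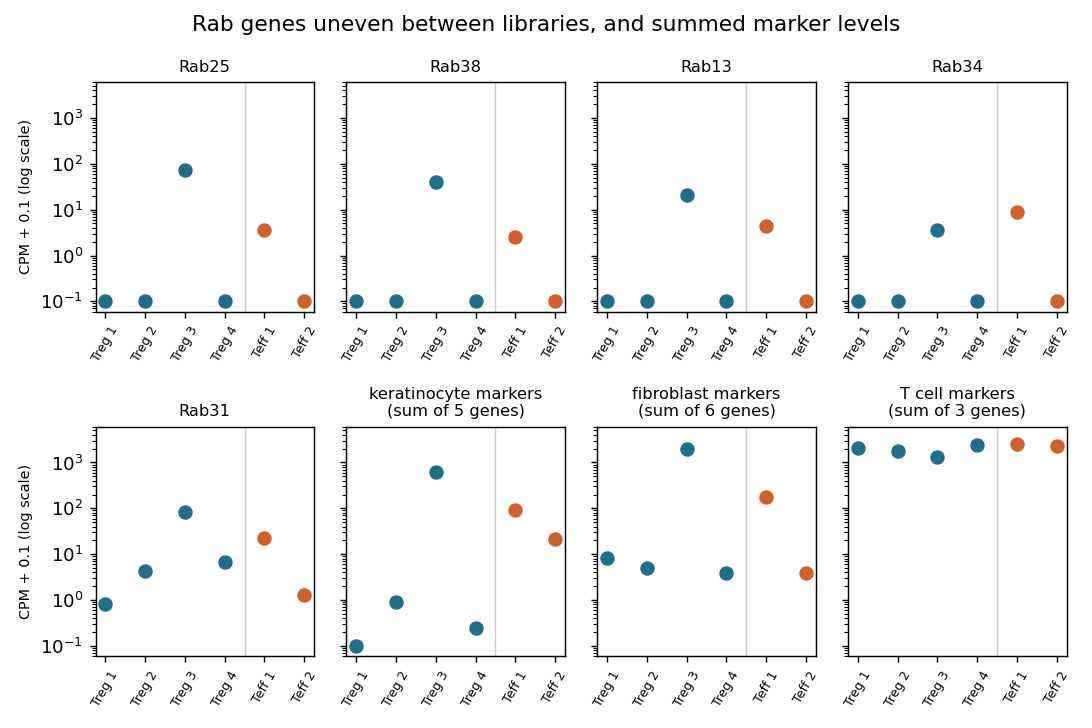
CPM + 0.1 on a log axis for 5 Rab genes and for the summed markers of 3 cell types, 1 point per library (Treg libraries left of the line in blue, Teff libraries right of it in orange; points at 0.1 have no counts). Rab25, Rab38, Rab13 and Rab34 have counts in Treg 3 and Teff 1, where the fibroblast and keratinocyte sums are highest.

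The balance between close paralogs was compared as a share of their summed CPM per kb. Rab11a made up 45.4%, 60.5%, 68.9% and 72.4% of Rab11a and Rab11b in Treg 1 to Treg 4 and 31.9% and 52.0% in Teff 1 and Teff 2. The mean was 61.8% ± 12 (SD, n = 4) in Tregs and 42.0% ± 14.2 (SD, n = 2) in Teffs, and Treg 1 lay between both Teff libraries. Rab5c held the larger part of the Rab5 paralogs in every library, with 68.0% ± 10.8 in Tregs and 66.6% ± 2.87 in Teffs. Rab8b likewise exceeded Rab8a per kb in every library (55.7% to 84.9% in Tregs, 56.2% and 67.2% in Teffs), and Rab4a was the smaller part of the Rab4 pair in every library (14.7% to 48.8% in Tregs). Rab1 and Rab1b changed places among Tregs, with Rab1 at 33.6% to 86.2%, while it was at 44.3% and 46.2% in Teffs. No pair separated the groups. These shares depend on how reads common to several genes were assigned. Stretches of 50 bases also found in transcripts of other genes made up 93.0% of Rab4b, 68.3% of Rab2b and 22.3% of Rab6a. They made up 14.0% of Rab11b, 13.0% of Rab5b and less of the other paralogs compared.

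**Figure D4:**
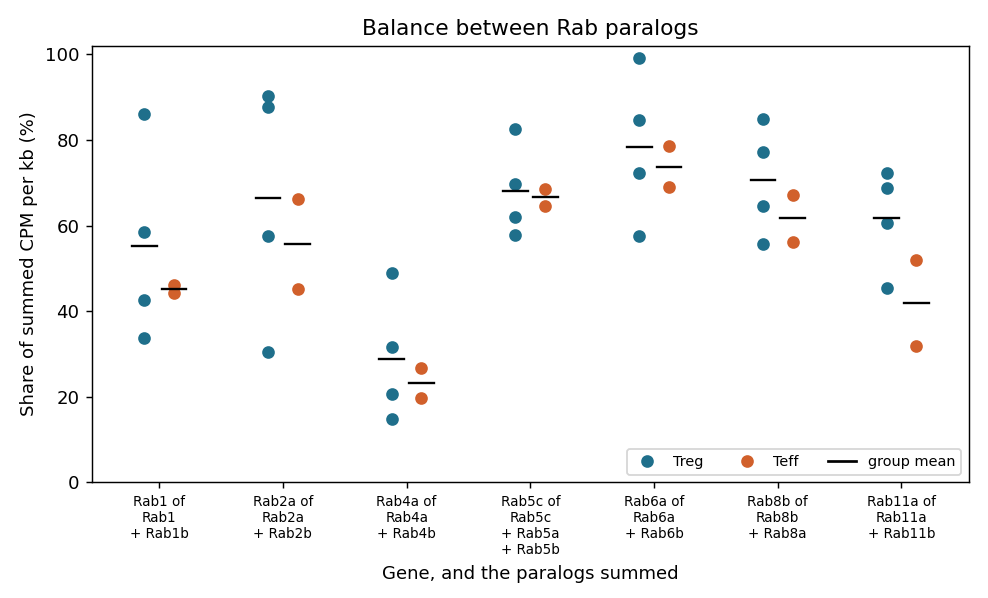
Share of 1 paralog in the summed CPM per kb of its pair or trio (vertical axis, percent), 1 point per library, with black bars at the group means. Treg and Teff points overlap in all 7 comparisons, and the Rab11a share spans 45.4% to 72.4% in Tregs.

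The proteins that load, prenylate, switch off and read Rabs were described from a list of 133 genes, of which 124 have a row and 119 were tested. None passed edgeR over all genes. At an unadjusted p under 0.05, 5 were higher in Tregs (2.42% of all genes) and 4 lower (2.31%), together 7.56% of the list beside 4.73% of all tested genes. The median log2 fold change was 0.05, and groups did not overlap for 20 genes (16.8%, against 15% of all genes). Of the 42 effectors, 4 were higher and 3 lower at that level, and of the 38 exchange factors 1 was higher and 1 lower. None of the 32 GTPase-activating proteins and none of the 7 genes of prenylation and GDI reached it in edgeR, while DESeq2 had 2 and 0 of them at an unadjusted p under 0.05. DESeq2 called 2 genes of the list after adjustment, Bicd1 and Optn, both effectors and both higher in Tregs. These were 1.8% of the 111 list genes with an adjusted p, beside 1.78% of all genes, so the share is that of the background.

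Bicd1, an adaptor that links Rab6 vesicles to the dynein motor, was at 151, 50.2, 32.7 and 19.5 CPM in Tregs and had no counts in Teffs. It was at least 256-fold higher in Tregs, against 3 counts over the Teff group (edgeR unadjusted p = 0.000718 and adjusted p = 0.248; DESeq2 adjusted p = 4.93e-07). Optn, the autophagy receptor optineurin, which binds Rab8, was at 1.08, 23.9, 23.6 and 33.3 CPM in Tregs and had no counts in Teffs, at least 90.8-fold higher (edgeR adjusted p = 0.721, DESeq2 adjusted p = 0.00254). Both genes thus had counts in all Treg libraries and in neither Teff library. That their groups do not overlap follows from how the partner genes were chosen. No share of all genes with counts in Tregs alone was taken. Lrrk2, a kinase that phosphorylates several Rabs, had the opposite pattern, with 6.73 and 2.70 CPM in Teffs and no counts in Tregs, at least 41.8-fold lower. Rab11fip4, a Rab11 effector, was at 5.67 and 30.5 CPM in Teffs and had 1 count in Tregs, in Treg 3. Pooled over each group, the Treg to Teff ratio came to 0.00258 (exact 95% interval 6.50e-05 to 0.0145, for counting error only, while the Teff libraries themselves lay far apart).

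The other 5 genes were measured in every library. Sytl2, which binds Rab27 and tethers granules at the membrane, was at 559, 658, 233 and 428 CPM in Tregs and 181 and 205 CPM in Teffs (log2 fold change 1.28 ± 0.47, edgeR adjusted p = 0.812). Dennd4a, an exchange factor of Rab10, was at 479.9, 588, 345 and 384 CPM in Tregs and 229.6 and 218 CPM in Teffs (log2 fold change 1.01 ± 0.36, edgeR adjusted p = 0.766). Eea1, the Rab5 effector that tethers early endosomes, was at 122, 257, 91.4 and 95 CPM in Tregs and 52.9 and 46.7 CPM in Teffs (log2 fold change 1.5 ± 0.60). All 3 were higher in 4 of 4 Treg libraries than in both Teff libraries, which follows from how the partner genes were chosen. On the other side, Appl1, another Rab5 effector, was at 64.0, 75.6, 47.9 and 112 CPM in Tregs and 134 and 199.5 CPM in Teffs (log2 fold change -1.16 ± 0.49). Dennd2d, an exchange factor of Rab9, was at 19.2, 57.7, 9.26 and 2.56 CPM in Tregs and 183 and 126 CPM in Teffs (log2 fold change -2.80 ± 1.03). Neither passed edgeR after adjustment (adjusted p of 1.0 and 0.817).

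**Figure D5:**
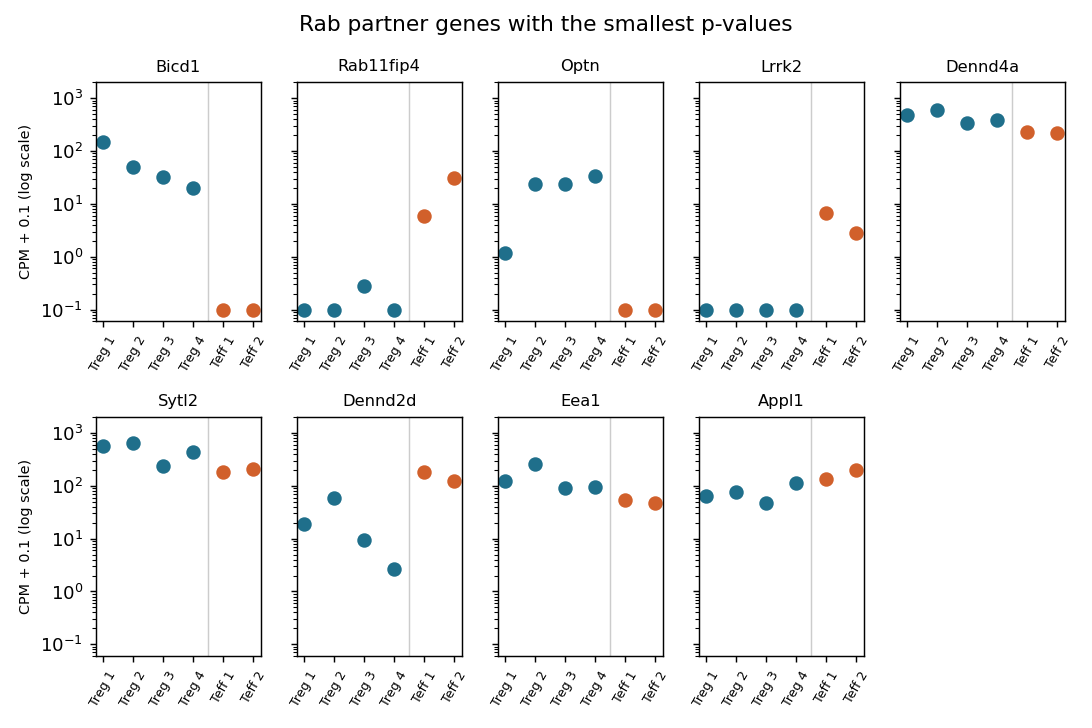
CPM + 0.1 on a log axis for the 9 Rab partner genes with an unadjusted edgeR p under 0.05 and groups that do not overlap, 1 point per library (Treg libraries left of the line in blue, Teff libraries right of it in orange; points at 0.1 have no counts). Bicd1 and Optn have counts in Treg libraries alone and Lrrk2 in Teff libraries alone.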

How the data were processed

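Per the labels' protocols, cDNA of sorted cells was made by SMARTer chemistry for ultra-low input. Build mm10, HTSeq 0.6.1, TopHat2 2.0.12, SAMtools 0.1.19.0, CASAVA 1.8.2 and Bowtie2 2.1.0.0 appear, without roles, in the submitters' processing notes. No source used here gives the annotation or strand setting. As files, the authors deposited raw counts per gene, and a comparison with log2 fold changes, mean log2 CPM, p-values and FDR, per the file headers. The 3 rows that name no gene held 88% to 90.2% of column totals and entered neither library sizes nor tests.

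Counts were analysed with edgeR 4.0.16 (R 4.3.3): filterByExpr (smallest count 10), TMM scaling, quasi-likelihood F test on group alone, Benjamini-Hochberg adjustment, threshold 0.05. Each SE is the size of the log2 fold change over the root of its F. An exact permutation test of 4 against 2 libraries cannot go below p = 0.0667. Exonic lengths, overlaps and shared 50-base stretches came from GENCODE M21 (GRCm38). The code was tested on simulated data with a narrower spread between libraries than was found here. That run does not show how the test behaves at the spread of these data. A floor is 3 counts. Folds against a floor pool the counts of each group and do not cover the spread between its libraries. Alternatives were DESeq2 1.42.0, other scalings, filters, a replicate block, a threshold of 0.01 and leaving out libraries.

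The members, role groups and lists were chosen with earlier results of these data known. Named in detail were members with an unadjusted p under 0.05 or groups that do not overlap. The 5 highest per kb and those with counts in 1 group only were also named. A short list by function was added (of it Rab17 and Rab44 were not analysed here). Up to 10 partner genes were named by p, all with an unadjusted p under 0.05 and groups that do not overlap. Other members are given by value and were chosen after their values were seen.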

Additional observations from a re-analysis of the deposited data

Results flagged for a closer look

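Among the 4 Treg libraries, a single library stood far from the others in CPM for 11 Rab genes and 1 partner gene, of 56 genes with any spread among Tregs. Chance sets about 1 in 20 groups of continuous values apart in this way, a rate that does not hold for counts near 0. In 8 of the 12 genes the other 3 Treg libraries had no counts, which meets the criterion by construction, so the number is no sign of an excess. Treg 3 was the highest for Rab25 (71.8 CPM), Rab38 (40.0 CPM), Rab13 (21.1 CPM), Rab34 (3.49 CPM) and Rab40b (1.75 CPM), each with no counts in the other Treg libraries. It was also the highest for Rab31, at 84.6 CPM, with the next at 6.68 CPM. The single count of Rab11fip4 in Tregs lay in Treg 3 (0.175 CPM). Treg 4 was the highest for Rab3b (18.3 CPM, others without counts), for Rab32 (12.9 CPM, the next at 0.180 CPM) and for Rab23 (6.68 CPM, the next at 0.899 CPM). Treg 2 was the highest for Rab39b, a Rab known from neurons (62.5 CPM, the next at 7.96 CPM), and held the single Treg count of Rab27b (0.159 CPM).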

How the results depend on the processing

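No Rab gene was called under any alternative run, and the partner list gained calls with DESeq2 alone (2 higher in Tregs). Counts over all genes, 4 higher and 1 lower, moved to 17 and 2 with no filter, 9 and 6 with the replicate block, 140 and 43 with DESeq2, 0 and 0 at an adjusted p of 0.01, and 0 and 0 without Treg 3 and Teff 1. Leaving out 1 library gave 0 to 2 higher and 0 lower. Rab genes whose groups do not overlap, 2 higher and 1 lower, numbered 1 and 2 with upper-quartile scaling, 2 lower with no filter, 0 lower at a mean CPM of at least 10, and 6 and 4 without Treg 3 and Teff 1 (23.8%, beside 37.6% of all genes). With all 6 libraries, the other scalings and filters gave 5.13% to 8% of tested Rab genes beside 13.4% to 15.7% of all tested genes. Leaving out 1 library gave 2 to 6 higher and 2 to 5 lower, together 8.89% to 23.9% of tested Rab genes beside 22.1% to 27.1% of all tested genes. It gave 0 to 1 Rab gene lower at an unadjusted p under 0.05. Partner genes at an unadjusted p under 0.05, 5 higher and 4 lower, came to 2 lower at a mean CPM of at least 10. They came to 2 lower with the block and 9 higher with DESeq2. Over all genes, 6.62% were at that level with DESeq2 and 4.73% with edgeR. For the other settings, and with libraries left out, that share is not given, so no change particular to the list is read. Leaving out 1 library gave 1 to 7 higher and 1 to 6 lower. The cause of these shifts was not tested.

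The replicate block takes Treg 3 and Treg 4 out of the comparison. Deviations from the group mean in Treg 1 and Teff 1, which share a number, had a correlation of 0.0661. The crossed pairing, Treg 1 with Teff 2, is its mirror (-0.0661) by construction. This value alone therefore does not show whether a number pairs libraries. The labels do not say that a number marks a shared source. With the block the median log2 fold change of the tested Rab genes was -0.41, beside -0.64 for all tested genes. Upper-quartile scaling moved the median of all genes from 0.07 to -0.04 and that of Rab genes from 0.37 to 0.26. Signs also turned with the block for Rab1b (-0.45), Rab25 (-5.80), Rab38 (-5.26), Rab37 (0.0042) and Rab7 (0.10). Without Treg 3 and Teff 1 they turned for Rab32 (2.87), Rab37 (0.23) and Rab7 (0.20). Leaving out 1 library gave log2 fold changes of -0.93 to 2.48 for Rab32, -0.26 to 0.14 for Rab37, -0.40 to 0.14 for Rab7 and -0.51 to 0.88 for Rab8b. Of 274 values of named genes under alternatives, 253 kept their direction and side of the threshold. Depth limits members near the floor of 0.396 to 0.579 CPM.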
